A study of Rattus norvegicus with 50 samples.

Results

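The genes described here take a cell from G1 into S phase and copy its DNA. They were chosen as a list of 41 rat genes by symbol and role. No measured value entered the rule, though earlier results of these data were known when the list was chosen. Of the 41, 39 had a probe set with a single gene symbol among the 13438 genes measured. Cdc6 and Gins2 were listed but were not reached. The 39 genes fall into 7 roles. There are 10 genes of origin licensing, including its inhibitor Gmnn, 3 that activate the replicative helicase and 7 polymerase and primase subunits. A further 7 are clamp, clamp loader and strand-processing factors, and 5 are enzymes of nucleotide supply. The rest are 4 chromatin and histone mRNA factors and 3 regulators of the G1/S step. A single probe set reached 30 of the genes and several reached the other 9, for which the one with the highest mean over the 50 arrays was used.

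Male Fischer 344 rats, 7 to 8 weeks old on receipt, breathed nickel subsulfide (Ni3S2), a poorly soluble nickel compound that is carcinogenic in the rat lung. Target concentrations were 0.04 mg/m3 (about 0.03 mg of nickel per m3), 0.08 mg/m3 (0.06 mg), 0.15 mg/m3 (0.11 mg) and 0.60 mg/m3 (0.44 mg). The rats were exposed 6 h daily, 5 days weekly, over 1 week, which made 5 exposure days, or over 4 weeks, which made 20, and each time had its own controls at 0 mg/m3. There were 10 groups of 5 arrays, 1 rat per array, from the 5 animals with the best RNA among 8, so n = 5 arrays throughout. RNA came from distal airway tissue that the labels place in the right caudal lobe and describe as broncho-alveolar. It is bulk tissue, so a change in the number of cycling cells and a change in RNA per cell cannot be told apart.

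Before S phase, the origin recognition complex and Cdt1 load the Mcm2 to Mcm7 helicase onto DNA, and geminin (Gmnn) binds Cdt1 to stop a further round of loading. Cyclin E drives the step into S phase, and E2F transcription factors switch on many of the genes that S phase needs, including most of those listed here. Adult lung has few dividing cells, and epithelial cells, fibroblasts and macrophages are known to re-enter the cycle after inhalation injury.

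The E2F family is known to bind the sequences TTTCCCGC, TTTCGCGC, TTTGCCGC and TTTGGCGC and their reverse complements. These were searched on both strands, where they may overlap one another, from 250 bases before to 50 after each RefSeq start site of the rat assembly GRCr8. A promoter was found for 34 members, all but Orc1, Mcm4, Rrm2, Ccne2 and E2f1. At least 1 match lay in 16 of the 34 (47.1%), against 618 of 27457 rat promoters (2.25%) and 411 of the 11089 measured genes with a promoter (3.71%), and 8 members had more than 1 match. A match describes these letters and does not show a bound site. Examples are shown upstream of their start sites, 4 from genes that were higher after 4 weeks at the top concentration and 2 from genes that were not called there. They are written 5′ to 3′ on the strand of the gene, with the matched letters in capitals.
Mcm2, chr4:122918095-122918138, minus strand: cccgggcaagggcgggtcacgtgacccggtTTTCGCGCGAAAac
Mcm5, chr19:13488775-13488812, plus strand: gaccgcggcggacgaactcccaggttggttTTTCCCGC
Mcm6, chr13:42404450-42404521, minus strand: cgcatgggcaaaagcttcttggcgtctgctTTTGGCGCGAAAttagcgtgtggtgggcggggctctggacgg
Pola1, chrX:62342490-62342557, minus strand: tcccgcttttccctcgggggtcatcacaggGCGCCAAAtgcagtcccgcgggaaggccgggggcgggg
Mcm7, chr12:22163193-22163260, minus strand: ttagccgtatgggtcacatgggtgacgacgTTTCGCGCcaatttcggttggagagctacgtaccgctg
Tyms, chr9:120776084-120776150, minus strand: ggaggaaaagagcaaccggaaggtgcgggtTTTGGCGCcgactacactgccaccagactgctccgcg

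The deposited values are log2 intensities, in which 1 unit is a doubling. Changes are log2 differences ± the standard error of a limma model of all 50 arrays, and a gene was called at a Benjamini-Hochberg adjusted p under 0.05 over the 13438 genes. The array gives no detection call, so a low value is not an absence, and levels are not compared between genes. Lung markers were bright: mean log2 intensities over the 50 arrays were 13.5 for the alveolar type II marker Sftpc, 13.6 for the club cell marker Scgb1a1 and 11.3 for the type I marker Ager, where the table ran from 2.22 to 13.8. On the first axis of variation, which held 63.5% of the variance, the 1-week control and 0.04 mg/m3 arrays lay at the end opposite to the 4-week groups. Their mean positions were -58.0 ± 12.2 and -76.5 ± 9.73 (SD), against 2.52 ± 3.71 for 0.60 mg/m3 at 1 week and 31.3 for the 4-week controls. The 0.08 mg/m3 arrays at 1 week were spread between them (-27.1 ± 26.5), and replicate 1 at -64.7 lay among the controls. Among the 0.15 mg/m3 arrays at 1 week, replicate 1 stood apart in the average of the replication genes, though not on this axis. The main counts at 1 week are therefore given also without that array and against the 4-week controls.

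Expression of the replication genes was highest after 1 week at 0.15 and 0.60 mg/m3 and lower, but still above the controls for part of the list, after 4 weeks. As a plain summary, each gene was centred on its mean over the 50 arrays and the 39 centred values were averaged per array. At 1 week this average was -0.37 (range -0.46 to -0.29) in controls, -0.30 at 0.04, -0.02 at 0.08, 0.53 at 0.15 and 0.77 (0.61 to 0.91) at 0.60 mg/m3. After 4 weeks it was -0.25 (-0.33 to -0.18) in controls, -0.18 at 0.04, -0.24 at 0.08, 0.00 (-0.11 to 0.09) at 0.15 and 0.05 (-0.09 to 0.22) at 0.60 mg/m3. The 2 upper concentrations did not overlap the controls of their time at either time. Of the 39 genes, 32 had their highest group mean at 0.60 mg/m3 after 1 week, and only Ccne2 and Pola1 had it at 0.60 mg/m3 after 4 weeks. The other 5, Mcm2, Pola2, Pold1, Rfc5 and E2f1, were highest in the 0.04 mg/m3 arrays at 1 week.

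**Figure D1:**
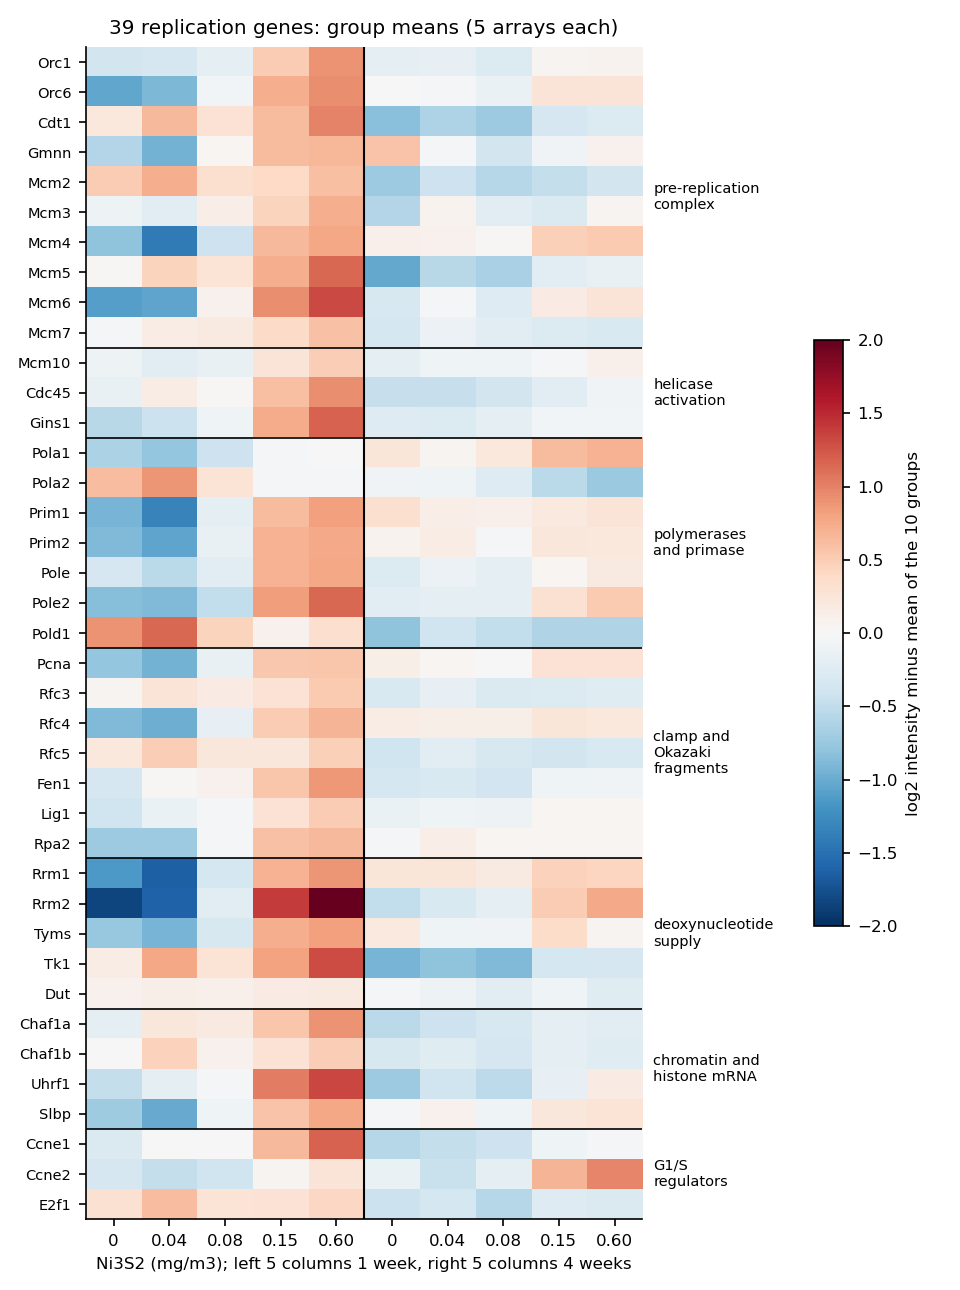
Group mean log2 intensity of each of the 39 genes (rows, by role) in the 10 groups (columns, by exposure time and concentration), as the difference from the gene's mean over the 50 arrays. Most rows are highest at 0.15 and 0.60 mg/m3 after 1 week, while Ccne2 and Pola1 peak at 0.60 mg/m3 after 4 weeks.

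**Figure D2:**
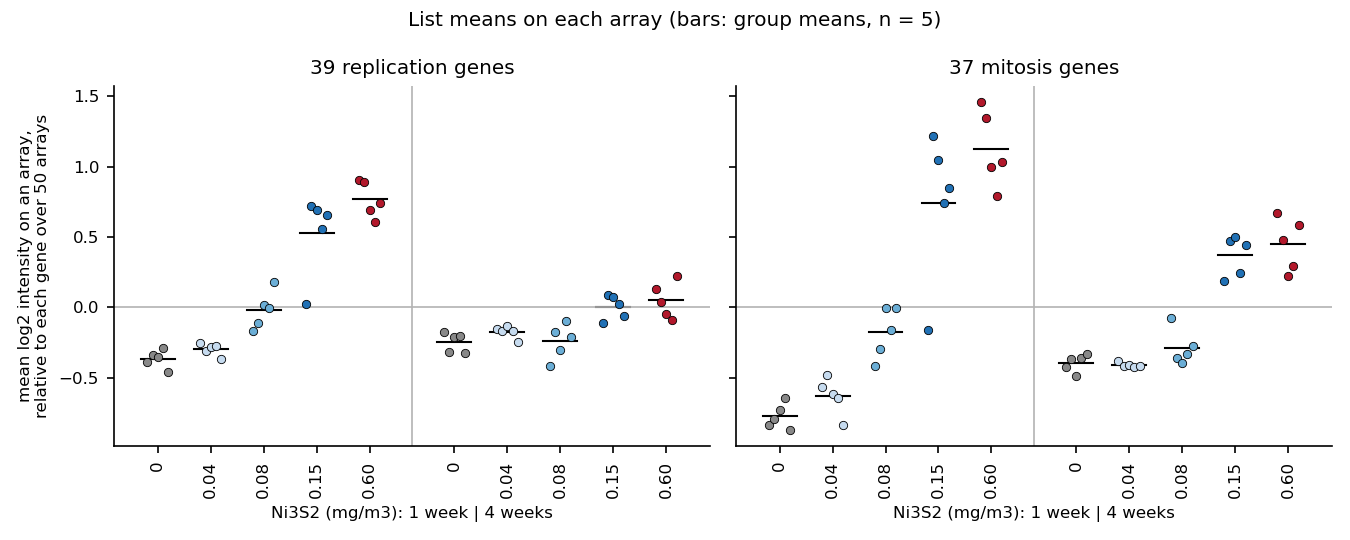
Average centred log2 intensity per array (points, 5 per group) of the 39 replication genes and of a list of mitosis genes, by exposure time and concentration. At 0.15 mg/m3 after 1 week, replicate 1 lies at 0.02 for the replication genes, while the other 4 lie between 0.55 and 0.72.

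After 4 weeks at 0.60 mg/m3, 16 of the 39 genes rose and 3 fell, against 9.47% and 7.9% of all genes (17.4% called in all). The rises were modest: the median change over the 39 was 0.26, against -0.00 over all genes, and 8 genes changed at least 1.5-fold. Positive differences were seen for 34 of 39. All 5 exposed arrays lay above all 5 controls for 14 genes, as they did for 10.5% of all genes, and below them for 2 genes (9.03% of all genes). Without replicate 5 of the exposed group 12 were called, since Mcm2, Mcm4, Cdc45, Pola1, Pole, Lig1 and Tk1 no longer passed.

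The next lower concentration, 0.15 mg/m3, gave 5 rises and 2 falls after 4 weeks, against 1.92% and 1.58% of all genes (3.5% in all). The 5 were Cdt1, Mcm5, Rrm2, Uhrf1 and Ccne2, and the 2 were Gmnn and Pola2. The median change of 0.25 (-0.01 over all genes) was close to that at 0.60 mg/m3, and 15 genes had all exposed arrays above the controls (4.61% of all genes). The count was 4 without control replicate 3 or exposed replicate 3, 4 or 5. It was 21 with array weights and 15 in a model of the compared arrays alone. The shares of all genes given here are those of the main model and not of these settings. The 4 concentrations at one time share their controls, so their changes are not independent of each other.

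Compared directly after 4 weeks, 0.60 and 0.15 mg/m3 differed in 0 of the 39 genes with limma (2.87% of all genes, 1.91% higher and 0.953% lower), and 3 passed an unadjusted p under 0.05. With array weights, which reduce the influence of noisier arrays, 3 were called, whereas the shares given are those of the main model. The median difference was 0.04. Between 0.15 and 0.08 mg/m3 at 4 weeks, a comparison added after the data were seen, 12 genes were higher and 0 lower, against 8.05% higher among all genes (18.6% in all). They were led by Ccne2 (0.86), Rrm2 (0.68), Tk1 (0.53) and Pole2 (0.49). That count rested on single arrays: it was 4, 5 and 1 without replicates 1, 2 and 3 of the 0.08 mg/m3 group, and 4, 2, 6 and 4 without replicates 2, 3, 4 and 5 of the 0.15 mg/m3 group.

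**Figure D3:**
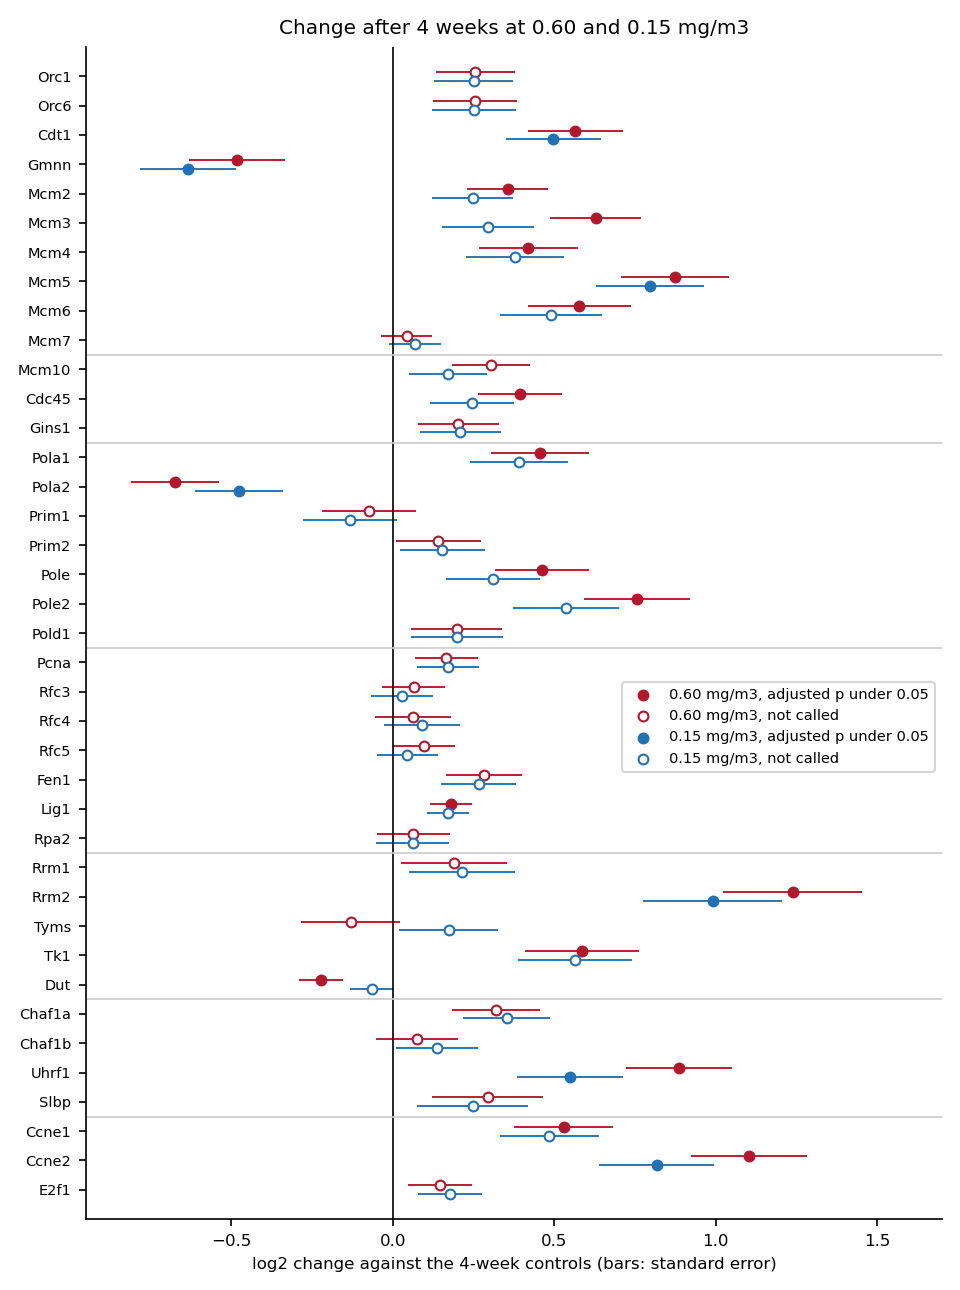
Change of each gene after 4 weeks at 0.60 (red) and 0.15 mg/m3 (blue) against the 4-week controls, on the log2 scale with the standard error, by role, with filled points for an adjusted p under 0.05. Rrm2 and Ccne2 lie furthest to the right, and Gmnn and Pola2 lie to the left of 0 at both concentrations.

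Among the 10 licensing genes, 6 rose and Gmnn fell after 4 weeks at 0.60 mg/m3 (9.47% and 7.9% of all genes), with a median change of 0.39. The risers were the loading factor Cdt1 and 5 of the 6 helicase subunits, Mcm2 to Mcm6. The remaining helicase subunit Mcm7 (0.04) and the origin recognition subunits Orc1 (0.26) and Orc6 (0.25) were not called. After 1 week at the same concentration 9 of the 10 rose and none fell, with a median of 1.19, in a comparison where 65.1% of all genes were called and 32.8% were higher.

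Mcm5 stood at 5.77, 5.28, 5.66, 5.69 and 5.54 in the 4-week controls. It stood at 6.20, 6.48, 6.50, 6.45 and 6.29 at 0.15 mg/m3 and at 6.70, 6.51, 6.29, 5.98 and 6.84 at 0.60 mg/m3. Neither exposed group overlapped the controls. The change was 0.80 ± 0.17 at 0.15 mg/m3 (adjusted p = 0.00185) and 0.87 ± 0.17, a 1.83-fold increase, at 0.60 mg/m3 (adjusted p = 0.000116). After 1 week Mcm5 rose by 1.13 at 0.60 mg/m3, from 6.58, 6.71, 6.85, 6.94 and 6.08 to 7.88, 7.99, 7.65, 7.57 and 7.74.

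Mcm6 had the largest 1-week change of the licensing genes. Its control arrays read 6.48, 6.50, 6.30, 6.13 and 6.04, and those at 0.60 mg/m3 read 8.70, 8.86, 8.70, 8.65 and 8.70. The groups were far apart, with a change of 2.43 ± 0.16 (5.39-fold, adjusted p = 9.77e-17). After 4 weeks the controls read 7.19, 6.87, 7.26, 7.18 and 6.91 and the 0.60 mg/m3 arrays 7.85, 7.73, 7.48, 7.34 and 7.90. The lowest exposed array was only just above the highest control, and the change was 0.58 ± 0.16 (adjusted p = 0.00705).

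Mcm3 was the one member that rose at the lowest concentration after 4 weeks. Its 4-week controls lay at 5.94, 5.77, 5.81, 5.75 and 5.36. At 0.04 mg/m3 it lay at 6.30, 6.34, 6.57, 6.42 and 6.30, and at 0.60 mg/m3 at 6.31, 6.43, 6.36, 6.13 and 6.55. Both groups were wholly above the controls, with changes of 0.66 (adjusted p = 0.0014) and 0.63 ± 0.14 (adjusted p = 0.000981). The groups between them overlapped the controls: 5.63, 6.38, 5.94, 6.44 and 6.02 at 0.08 mg/m3, and 6.04, 6.11, 6.00, 6.19 and 5.78 at 0.15 mg/m3, where the change of 0.29 was not called. Replicate 1 at 0.08 mg/m3 was the lowest of its group, and without it the change there was 0.47 ± 0.14 (adjusted p = 0.0271).

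Mcm4 rose by 0.42 ± 0.15 after 4 weeks at 0.60 mg/m3, from 7.37, 7.24, 7.35, 7.20 and 7.22 to 7.76, 7.80, 7.52, 7.59 and 7.83. The arrays did not overlap, but the adjusted p of 0.0489 was lost when any 1 of 9 of the 10 compared arrays was left out. At 1 week the gene moved both ways. Controls read 6.60, 6.44, 6.13, 6.41 and 6.31, the 0.04 mg/m3 arrays 6.02, 5.58, 6.28, 5.58 and 5.39, and the 0.60 mg/m3 arrays 8.02, 8.18, 7.96, 7.74 and 7.87. Mcm4 therefore fell by 0.61 at 0.04 mg/m3, with 1 of 5 arrays within the control range, and rose by 1.57 at 0.60 mg/m3. The controls themselves averaged 6.38 at 1 week and 7.28 at 4 weeks. On the first axis of all genes the 1-week groups lay in the same order, at -76.5 (0.04 mg/m3), -58.0 (controls) and 2.52 (0.60 mg/m3). Whether the 2-way changes of Mcm4, and those of Prim1 and Rrm1 below, go with that axis was not tested.

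Cdt1, which brings the helicase to origins, read 6.20, 5.70, 5.99, 6.12 and 5.61 in the 4-week controls. It read 6.32, 6.45, 6.58, 6.37 and 6.39 at 0.15 mg/m3 and 6.54, 6.60, 6.19, 6.27 and 6.83 at 0.60 mg/m3. All arrays at 0.15 mg/m3 were above the controls, and at 0.60 mg/m3 replicate 3 was level with the highest control. The changes were 0.50 ± 0.15 (adjusted p = 0.0448) and 0.57 ± 0.15 (adjusted p = 0.00438).

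Gmnn, the inhibitor of Cdt1, moved in opposite directions at the 2 times. After 4 weeks the controls stood at 8.06, 8.46, 8.40, 8.54 and 8.25. All arrays at 0.08 mg/m3 (7.47, 7.44, 7.20, 7.40 and 7.51) and at 0.15 mg/m3 (7.51, 7.63, 7.76, 7.89 and 7.75) were below every control. At 0.04 mg/m3 (8.06, 8.13, 7.53, 7.38 and 7.59) and at 0.60 mg/m3 (8.12, 7.79, 7.62, 7.93 and 7.84) the lowest controls were reached. The change was -0.60 at 0.04 mg/m3 (adjusted p = 0.0053) and -0.94 at 0.08 mg/m3 (adjusted p = 6.3e-05). It was -0.63 at 0.15 mg/m3 (adjusted p = 0.00648) and -0.48 ± 0.15 at 0.60 mg/m3 (adjusted p = 0.019). The fall was therefore not graded with concentration.

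At 1 week the Gmnn controls read 7.37, 7.07, 7.03, 7.15 and 7.35, below every 4-week control. The arrays at 0.60 mg/m3 read 8.76, 8.53, 8.58, 8.19 and 8.12, wholly above them, a change of 1.24 ± 0.15 (adjusted p = 8.23e-10). Those levels overlapped the 4-week controls, and the difference between them was 0.10 and not called. The difference between the changes at the 2 times was -1.73 ± 0.21 (adjusted p = 5.8e-09). A further Gmnn probe set, not used for the calls, had negative 4-week differences at all 4 concentrations (-0.37, -0.34, -0.23 and -0.14) and a 1-week difference of 0.53 at 0.60 mg/m3.

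**Figure D4:**
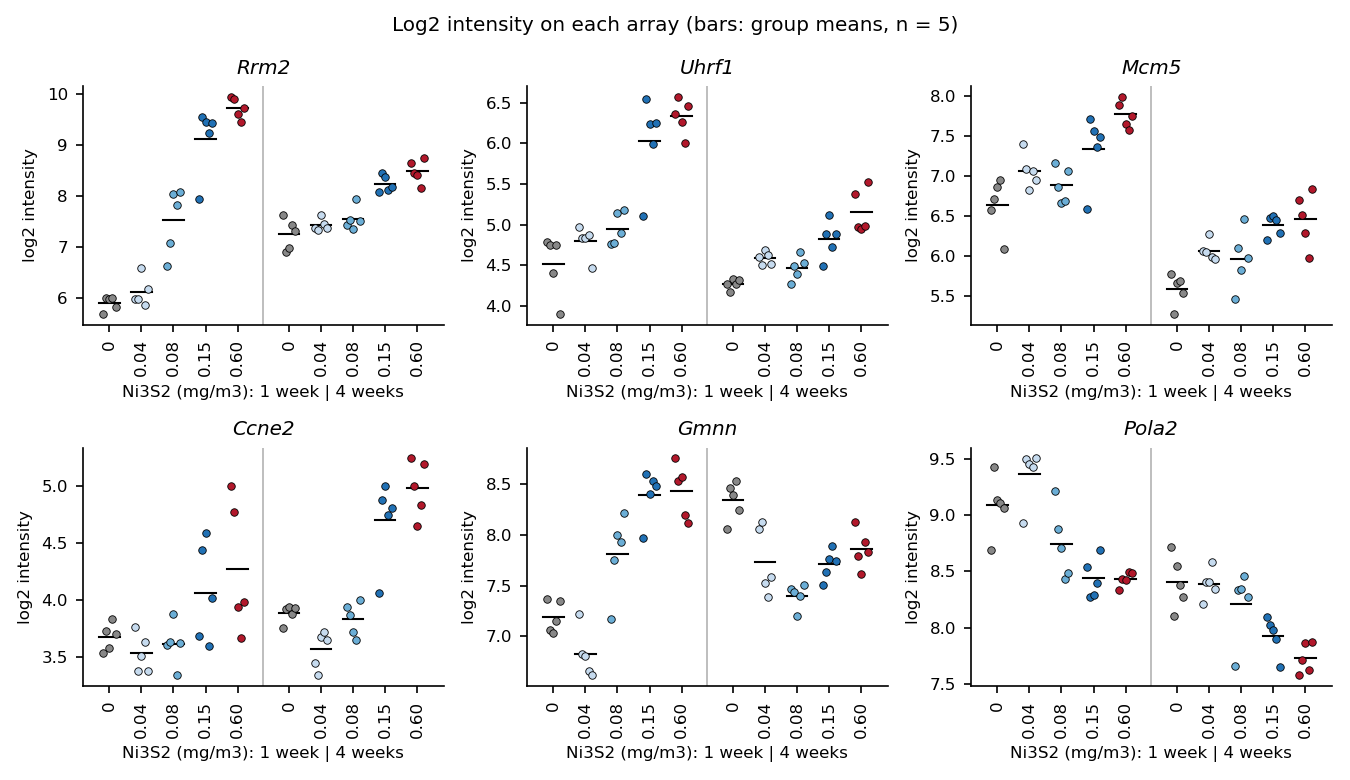
Log2 intensity of selected genes in each array (points, 5 per group) with the group mean (bar), by exposure time and concentration. Rrm2 rises with concentration at both times, whereas Gmnn lies above the controls at 0.15 and 0.60 mg/m3 after 1 week and has a lower mean than the controls at every concentration after 4 weeks.

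Of the 3 helicase activators, Cdc45, which joins the Mcm ring and the GINS complex in the working helicase, rose by 0.39 ± 0.13 after 4 weeks at 0.60 mg/m3 (adjusted p = 0.0285). Its arrays lay at 5.82 to 5.94 (median 5.88), where the controls ranged from 5.18 to 5.87. Mcm10 (0.30) and the GINS subunit Gins1 (0.20) were not called. After 1 week at 0.60 mg/m3, where 32.8% of all genes were higher, all 3 rose, Gins1 most, by 1.73 ± 0.12 (adjusted p = 1.17e-15). Cdc45 had 3 further probe sets, whose 4-week differences were 0.52, -0.08 and 0.21.

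The polymerase and primase subunits did not move as a block. After 4 weeks at 0.60 mg/m3, Pola1, the catalytic subunit of polymerase alpha, rose by 0.45 ± 0.15, and the polymerase epsilon subunits Pole and Pole2 rose by 0.46 ± 0.15 and 0.76 ± 0.16. Pole2 lay between 5.51 and 6.03 there and between 4.85 and 5.17 in controls, with no overlap (adjusted p = 0.00068). Pola2, the accessory subunit of polymerase alpha, fell. The primase subunits Prim1 (-0.07) and Prim2 (0.14) and the polymerase delta catalytic subunit Pold1 (0.20) were not called.

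Pola2 stood at 8.72, 8.10, 8.55, 8.38 and 8.27 in the 4-week controls. It stood at 8.09, 8.02, 7.98, 7.90 and 7.65 at 0.15 mg/m3 and at 7.58, 7.72, 7.87, 7.62 and 7.87 at 0.60 mg/m3. Both groups were below every control, narrowly so at 0.15 mg/m3, and the changes were -0.48 ± 0.14 (adjusted p = 0.0358) and -0.67 ± 0.14 (adjusted p = 0.000247). At 1 week it stood at 8.69, 9.42, 9.13, 9.11 and 9.06 in controls and at 8.34, 8.43, 8.43, 8.49 and 8.49 at 0.60 mg/m3, a fall of the same size, -0.65 ± 0.14 (adjusted p = 4.79e-05). Against the 4-week controls, however, the 1-week difference was 0.03.

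Prim1, the catalytic primase subunit that lays down RNA primers, rose at 1 week at the upper concentrations. Control arrays read 6.00, 6.05, 5.86, 6.44 and 6.26, and those at 0.60 mg/m3 read 7.89, 7.93, 7.83, 7.84 and 7.88, a change of 1.75 ± 0.15 (adjusted p = 5.65e-14). At 0.04 mg/m3 they read 5.97, 4.98, 5.87, 5.85 and 5.88, a fall of 0.41. Replicate 2 (4.98) weighed on that fall, since the other arrays of its group lay between 5.85 and 5.97. The exposed arrays at 0.60 mg/m3 lay far above the controls, while those at 0.04 mg/m3 lay within or below the control range. After 4 weeks the controls (7.38, 7.35, 7.52, 7.37 and 7.25) and the 0.60 mg/m3 arrays (7.30, 7.24, 7.37, 7.00 and 7.59) overlapped throughout. Pold1, like Pola2, was lower at 1 week: it fell by 0.55 ± 0.14 at 0.60 mg/m3 (adjusted p = 0.000639), where its arrays lay between 6.92 and 7.26 and the controls between 7.45 and 8.11. Against the 4-week controls the direction turned, to 1.14 ± 0.14 (adjusted p = 1.14e-08).

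The clamp, clamp loader and strand-processing genes rose after 1 week at 0.60 mg/m3 and, but for Lig1, were not called there at 4 weeks. All 7 rose at 1 week, where 32.8% of all genes were higher, with a median of 1.20: Pcna, the sliding clamp, by 1.32 ± 0.10, Rfc4 of the clamp loader by 1.57, Rpa2 of the single-strand binding complex by 1.39 and Fen1, the flap nuclease of lagging-strand maturation, by 1.20. At 0.15 mg/m3 after 1 week 6 of the 7 rose (33.8% of all genes were higher), and Rfc5 differed by 0.01. After 4 weeks at 0.60 mg/m3 the median was 0.10, and Lig1, the ligase that seals Okazaki fragments, was the single call. Pcna lay at 10.82 to 11.05 at 4 weeks and 0.60 mg/m3, where the controls ranged from 10.67 to 10.82, a difference of 0.17 that was not called.

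Lig1 stood at 6.59, 6.73, 6.74, 6.66 and 6.68 in the 1-week controls and at 7.65, 7.59, 7.41, 7.62 and 7.73 at 0.60 mg/m3, a change of 0.92 ± 0.07. At 4 weeks it stood at 7.05, 7.02, 7.05, 6.86 and 6.78 in controls and at 7.17, 7.12, 7.16, 7.04 and 7.17 at 0.60 mg/m3. The 4-week groups touched, and the change of 0.18 ± 0.07 (adjusted p = 0.0464) was a 1.13-fold difference. Fen1 read 4.74, 4.81, 5.00, 4.96 and 4.56 in the 1-week controls and 6.31, 6.04, 5.91, 5.75 and 6.04 at 0.60 mg/m3. After 4 weeks its controls (4.94, 4.49, 4.85, 4.82 and 4.84) and 0.60 mg/m3 arrays (5.14, 4.95, 5.09, 4.93 and 5.26) almost separated, but the difference of 0.28 was not called (adjusted p = 0.092).

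Nucleotide supply held the member with the largest changes. Rrm2 encodes the regulated small subunit of ribonucleotide reductase, which makes deoxynucleotides. In the 1-week controls it stood at 5.69, 6.00, 5.99, 5.99 and 5.83, and at 0.04 mg/m3 it overlapped them (5.98, 5.97, 6.59, 5.85 and 6.19). It stood at 6.63, 7.09, 8.04, 7.82 and 8.08 at 0.08 mg/m3, at 7.94, 9.57, 9.47, 9.25 and 9.44 at 0.15 mg/m3 and at 9.95, 9.91, 9.62, 9.45 and 9.74 at 0.60 mg/m3. Every array at the 3 upper concentrations was above every control, and replicate 1 at 0.15 mg/m3 was well below the rest of its group. The change at 0.60 mg/m3 was 3.83 ± 0.22, or 14.2-fold (adjusted p = 2.44e-18).

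After 4 weeks Rrm2 read 7.64, 6.90, 6.98, 7.43 and 7.31 in controls. It read 7.37, 7.33, 7.64, 7.46 and 7.37 at 0.04 mg/m3 and 7.44, 7.54, 7.36, 7.96 and 7.51 at 0.08 mg/m3, both overlapping the controls. It read 8.09, 8.46, 8.37, 8.12 and 8.17 at 0.15 mg/m3 and 8.66, 8.45, 8.42, 8.17 and 8.75 at 0.60 mg/m3, both wholly above them. The changes were 0.99 ± 0.22 (1.99-fold, adjusted p = 0.00272) and 1.24 ± 0.22 (2.36-fold, adjusted p = 2.65e-05). The 4-week controls were themselves 1.35 above the 1-week controls. A further Rrm2 probe set differed by 2.51 at 1 week and 0.84 at 4 weeks at 0.60 mg/m3.

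Rrm1, the large subunit of the same enzyme, rose at 1 week but was not called at 4 weeks. Its 1-week controls read 5.83, 5.90, 5.60, 5.86 and 5.78, the 0.04 mg/m3 arrays 5.51, 5.12, 5.81, 5.28 and 4.86, and the 0.60 mg/m3 arrays 7.91, 7.93, 7.86, 7.66 and 7.79. It thus fell by 0.48 at 0.04 mg/m3, with 4 of 5 arrays below every control, and rose by 2.04 ± 0.16 at 0.60 mg/m3. At 4 weeks the controls (7.17, 7.16, 7.30, 7.16 and 7.15) and 0.60 mg/m3 arrays (7.52, 7.21, 7.34, 7.27 and 7.54) overlapped.

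Tk1, the S-phase thymidine kinase, read 5.13, 5.09, 5.25, 5.41 and 5.23 in the 4-week controls and 5.88, 5.74, 5.66, 5.62 and 6.12 at 0.60 mg/m3. No arrays overlapped, and the rise was 0.59 ± 0.18 (adjusted p = 0.0147). At 0.15 mg/m3 the arrays (5.44, 5.99, 6.01, 5.59 and 5.89) were also above every control, but the difference of 0.56 was not called (adjusted p = 0.0615). At 1 week Tk1 rose by 0.63 at 0.04 mg/m3, from 5.96, 6.26, 6.59, 6.75 and 5.90 to 6.92, 7.02, 6.80, 7.14 and 6.72. It reached 7.60, 7.56, 7.48, 7.20 and 7.40 at 0.60 mg/m3. The 1-week change was not graded with concentration: it was 0.13 at 0.08 mg/m3, not called, and 0.66 at 0.15 mg/m3. The other Tk1 probe sets differed by 0.61 and -0.01 at 0.60 mg/m3 after 4 weeks, and by 0.56 and 0.09 at 0.04 mg/m3 after 1 week. Tyms, which makes thymidylate, rose by 1.59 after 1 week and differed by -0.13 after 4 weeks, and Dut, which removes dUTP, fell by 0.22 ± 0.07 after 4 weeks (adjusted p = 0.0163).

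Among the chromatin and histone mRNA factors, all 4 rose after 1 week at 0.60 mg/m3, where 32.8% of all genes were higher. Only Uhrf1, which carries DNA methylation through replication, rose after 4 weeks. Uhrf1 stood at 4.27, 4.18, 4.34, 4.27 and 4.32 in the 4-week controls. It stood at 4.49, 4.88, 5.13, 4.73 and 4.88 at 0.15 mg/m3 and at 5.38, 4.97, 4.95, 4.99 and 5.52 at 0.60 mg/m3. Both exposed groups lay above every control, and 1 array at 0.15 mg/m3 lay within the range at 0.60 mg/m3, with changes of 0.55 ± 0.16 (adjusted p = 0.049) and 0.89 ± 0.16 (1.85-fold, adjusted p = 7.05e-05). At 1 week it rose by 1.81 at 0.60 mg/m3, from 4.78, 4.75, 4.41, 4.75 and 3.91 to 6.36, 6.57, 6.27, 6.00 and 6.46.

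Chaf1a, a subunit of the chromatin assembly factor that places histones behind the fork, read 5.74, 5.72, 5.78, 5.61 and 5.55 in the 1-week controls and 7.02, 6.63, 6.91, 6.50 and 6.74 at 0.60 mg/m3. It rose by 1.08 ± 0.14. After 4 weeks its controls (5.26, 5.16, 5.45, 5.61 and 5.14) and 0.60 mg/m3 arrays (5.94, 5.62, 5.46, 5.25 and 5.96) overlapped, and the difference of 0.32 was not called (adjusted p = 0.0998). The histone mRNA binding protein Slbp rose by 1.48 ± 0.17 after 1 week and differed by 0.29 after 4 weeks.

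Both E cyclins rose after 4 weeks at 0.60 mg/m3, while E2f1 (0.15) was not called. Ccne1 lay between 3.86 and 4.08 there and between 3.32 and 3.55 in controls, a change of 0.53 ± 0.15 (adjusted p = 0.0111). Ccne2 averaged 3.88 ± 0.08 (SD) in the 4-week controls, 4.70 ± 0.37 at 0.15 mg/m3 and 4.98 ± 0.25 at 0.60 mg/m3. Its change was 0.82 ± 0.18 at 0.15 mg/m3 (adjusted p = 0.0031) and 1.10 ± 0.18 (2.15-fold, adjusted p = 8.8e-06) at 0.60 mg/m3. At 1 week Ccne2 rose less, by 0.60 ± 0.18, and its 5 arrays at 0.60 mg/m3 spread from 3.66 to 5.00. A further Ccne2 probe set differed by -0.61 at 1 week and 0.33 at 4 weeks at 0.60 mg/m3, so the size of the Ccne2 change, and its direction at 1 week, depended on the probe set.

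At the 2 lower concentrations few members were called after 4 weeks, and the counts did not exceed the share among all genes. At 0.08 mg/m3, 0 rose and 1 (Gmnn) fell, against 5.67% and 2.87% of all genes (8.54% in all), with 5 genes at an unadjusted p under 0.05. At 0.04 mg/m3, Mcm3 rose and Gmnn fell, against 8.29% and 4.61% (12.9% in all), with 6 at an unadjusted p under 0.05. Median changes were 0.03 and 0.08. The count at 0.08 mg/m3 was 3 without exposed replicate 1, where Mcm3 and Mcm5 joined it, 2 without control replicate 1 or 5, and 7 with array weights. At 0.04 mg/m3 it was 6 without control replicate 1, 4 without exposed replicate 1, and 9 with array weights. The shares given are those of the main model, so these other counts cannot be set against them. These groups differed from the controls in muscle content as well: all 7 smooth muscle markers were higher at both, with summed intensities of 5409 to 7617 at 0.04 and 4648 to 8954 at 0.08 mg/m3 against 2893 to 3193 in controls. All 7 heart muscle markers at 0.04 mg/m3 and 3 of 7 at 0.08 mg/m3 were higher, and 5 of 6 B cell markers were higher at both. T cell markers were higher in 10 of 12 at 0.04 mg/m3 (summed 2347 to 2903, against 1145 to 1514 in controls) and in 3 of 12 at 0.08 mg/m3, where 4 of 6 natural killer cell markers were lower. Replicate 1 at 0.08 mg/m3 reached a summed skeletal muscle signal of 17692, where the group median was 232. The part of these markers in the members' values was not tested.

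After 1 week at 0.60 mg/m3, 34 of the 39 genes rose and 2, Pola2 and Pold1, fell, with a median of 1.16. The background was high, since 65.1% of all genes were called, 32.8% higher and 32.3% lower. All 5 exposed arrays lay above the controls for 33 members (27.3% of all genes) and 32 members changed at least 1.5-fold. Mcm2 (0.10), Dut (0.11) and E2f1 (0.11) were not called. Besides Rrm2 and Mcm6 the largest rises were of Rrm1 (4.12-fold), Pole2 (3.99-fold), Orc6 (3.95-fold) and Uhrf1 (3.51-fold). Against the 4-week controls these were 1.56-fold for Rrm1, 2.60-fold for Pole2, 1.91-fold for Orc6 and 4.17-fold for Uhrf1. Cell markers moved too: 5 of 7 neutrophil markers rose (summed 854 to 1909 in controls and 1979 to 2760 exposed), as did 4 of 6 alveolar macrophage markers (3259 to 3961 and 4673 to 5474) and 6 of 7 heart muscle markers. All 7 smooth muscle markers and 4 of 6 B cell markers fell. Falls of T cell markers, 4 of 12, were near the 32.3% of all genes that were lower. Their part in the members' values was not tested.

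After 1 week at 0.15 mg/m3, 32 rose and 2 fell, with a median of 0.88, where 67.4% of all genes were called. All exposed arrays lay above the controls for 22 members (28% of all genes). Without replicate 1, whose average was 0.02 against 0.55 to 0.72 in the others, 33 rose and 2 fell and the median was 1.03. At 0.08 mg/m3, 19 rose and 2 fell (25.1% and 23.5% of all genes, 48.6% in all), led by Rrm2 (1.63), Mcm6 (1.19) and Orc6 (0.99). At 0.04 mg/m3, 8 rose and 3 fell (15.1% and 11.8% of all genes, 26.9% in all), so the total was near the share among all genes. The largest of these changes were those of Tk1 (0.63) and Mcm4 (-0.61). The count was 5 without control replicate 5, and 6 and 7 without exposed replicates 2 and 4. Directly compared, 0.60 and 0.15 mg/m3 at 1 week differed in 0 members with limma (0.0149% of all genes), with a median difference of 0.22.

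The 1-week controls differed widely from the 4-week controls, in 73.5% of all genes, 35.2% higher and 38.2% lower after 4 weeks. Among the members 17 were higher and 14 lower. Rrm1 (1.40), Rrm2 (1.35), Prim1 (1.25), Gmnn (1.15) and Orc6 (1.05) were higher in the 4-week controls. Pold1 (-1.70), Mcm2 (-1.23), Tk1 (-1.07), Cdt1 (-1.05) and Mcm5 (-1.05) were lower. Smooth muscle markers summed to 7013 to 12156 in the 1-week controls and to 3040 to 4749 at 0.60 mg/m3 after 1 week, where all 7 were lower. With scan batches not given in the sources used here, time and batch cannot be told apart. Nor can concentration and batch within the 1-week arrays, whose group means on the first axis ran from -76.5 (0.04 mg/m3) to 8.56 (0.15 mg/m3).

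Set against the 4-week controls instead, the 1-week arrays at 0.60 mg/m3 had 35 members higher and 0 lower, with a median of 0.89 against 0.10 over all genes, of which 33.3% were higher (49.4% called). The same comparison of 0.15 mg/m3 gave 34 higher and 0 lower, with a median of 0.70, where 29% of all genes were higher (42.6% called). The order of the genes was different. Rrm2 still led with 2.48 (5.59-fold), followed by Tk1 (2.23), Mcm5 (2.18), Uhrf1 (2.06) and Cdt1 (1.82), and Mcm2 (1.33) and Pold1 (1.14) were higher. Gmnn (0.10), Pola2 (0.03), Pola1 (-0.23) and Ccne2 (0.39) were not called. This comparison crosses the exposure times. At 0.08 mg/m3 it gave 18 higher and 8 lower (64.7% of all genes called) and at 0.04 mg/m3 17 higher and 15 lower (81.7%).

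**Figure D5:**
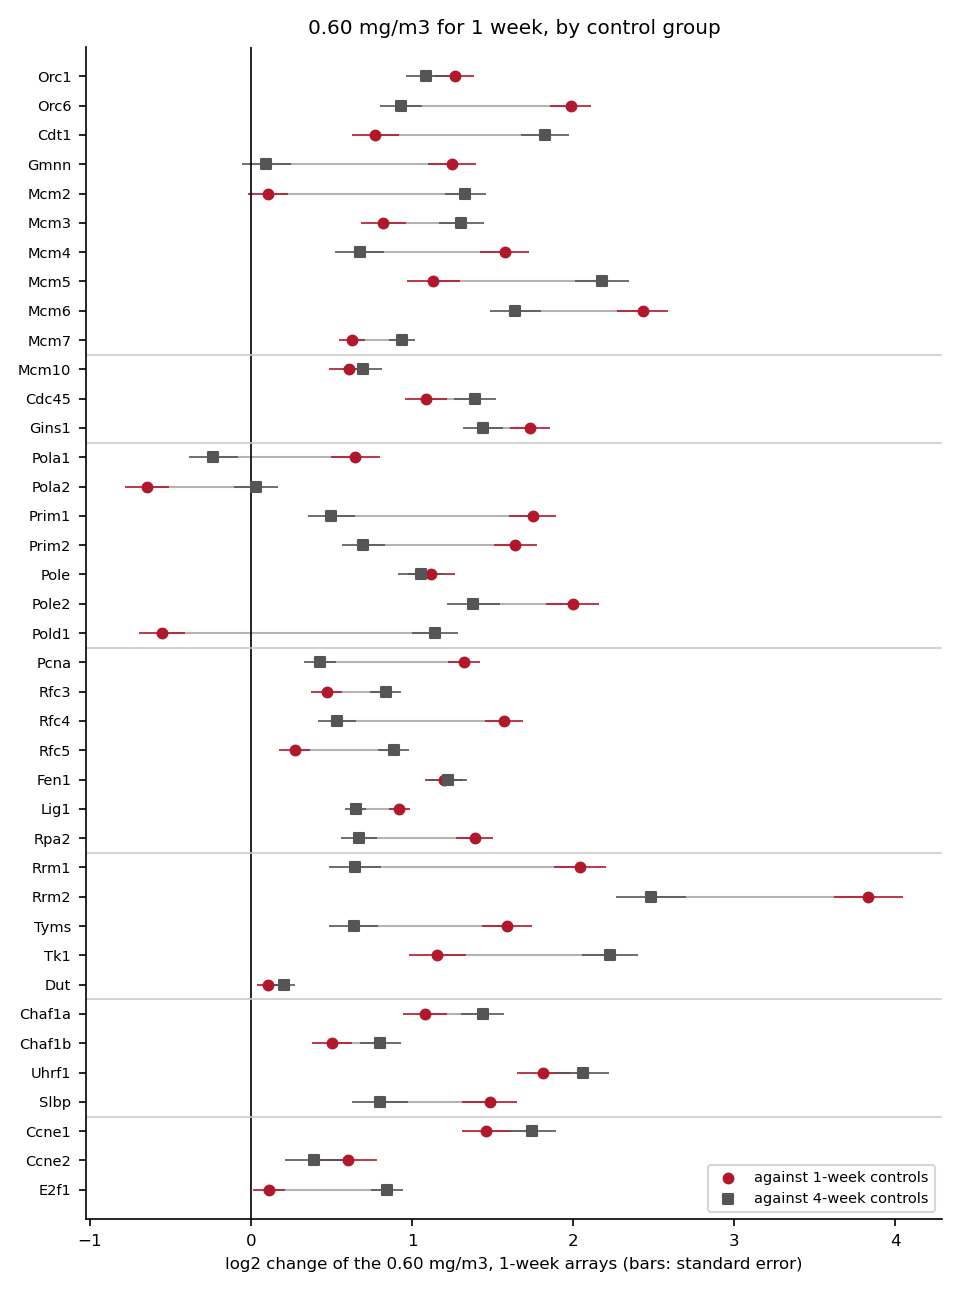
Change of each gene after 1 week at 0.60 mg/m3 against the 1-week controls (circles) and against the 4-week controls (squares), on the log2 scale with the standard error. Rrm2 is at 3.83 with the first and 2.48 with the second, while Pold1 lies at -0.55 with the first and 1.14 with the second.

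The change from the controls was smaller at 4 weeks than at 1 week for most members. At 0.60 mg/m3 the difference between the changes passed the threshold for 29, downward for 28 and upward for Pold1 (0.75), with a median of -0.76, where 56.7% of all genes passed and 29% did so downward. It passed at 0.15 mg/m3 downward for 22 and upward for Pold1 (1.00), where 56.8% of all genes passed, 29.4% downward and 27.4% upward. The largest differences at 0.60 mg/m3 were those of Rrm2 (-2.59 ± 0.30), Mcm6 (-1.85 ± 0.22), Rrm1 (-1.85 ± 0.23) and Prim1 (-1.82 ± 0.21). By role they were downward in all 5 nucleotide genes, all 4 chromatin genes and 6 of the 7 clamp genes. They did not pass for 10 members: Mcm10, Pola1, Pola2, Rfc5, E2f1, Mcm5 (-0.26 ± 0.24), Mcm3 (-0.19 ± 0.20), Cdt1 (-0.21 ± 0.21), Mcm2 (0.25 ± 0.18) and Ccne2 (0.50 ± 0.25).

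Compared without controls, the exposed groups showed the same order of times. At 0.60 mg/m3, 36 members were lower at 4 weeks than at 1 week and 2 were higher, with a median of -0.71, where 37.2% of all genes were lower (53.8% called). For 0.15 mg/m3, 33 were lower and 2 higher, with a median of -0.55, where 34.4% of all genes were lower (48.5% called). The 2 higher ones were Ccne2 (0.71 at 0.60 mg/m3 and 0.63 at 0.15 mg/m3) and Pola1 (0.69 and 0.67) each time. These comparisons were added after the data were seen and hold the time difference of the arrays as well.

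Neighbouring pathways were counted in the same model. Of 37 measured mitosis genes, 30 rose and 1 fell after 4 weeks at 0.60 mg/m3 (9.47% and 7.9% of all genes), with a median of 0.90. At 0.15 mg/m3, 26 rose and 0 fell (1.92% and 1.58% of all genes), with a median of 0.82. The mitosis genes were led by Melk (1.66 ± 0.27), Top2a, the topoisomerase that untangles sister DNA (1.64 ± 0.22), Cks2 (1.55 ± 0.21) and the proliferation marker Mki67 (1.53 ± 0.25). At 0.08 mg/m3 0 were called (8.54% of all genes). At 0.04 mg/m3 Kif4a (-0.50) and Prc1 (-0.41) fell, where 4.61% of all genes were lower. After 1 week at 0.60 mg/m3 34 rose and 0 fell, with a median of 1.86, where 32.8% of all genes were higher. The medians of the mitosis genes were thus above those of the replication genes at both upper concentrations and times, 0.90 against 0.26 after 4 weeks at 0.60 mg/m3.

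Of 32 other replication genes measured, 8 rose and 1 fell after 4 weeks at 0.60 mg/m3, against 9.47% and 7.9% of all genes. The median was 0.21. Rises were led by the helicase-like remodeller Hells (0.69 ± 0.22), Dscc1 (0.64 ± 0.16), the nuclease Exo1 (0.57 ± 0.16) and the histone chaperone Asf1b (0.54 ± 0.19). After 1 week at 0.60 mg/m3 22 rose and 3 fell, against 32.8% and 32.3% of all genes. Of 25 regulators of G1, 4 rose and 6 fell after 4 weeks at 0.60 mg/m3 (9.47% and 7.9% of all genes), with a median of 0.02. The cyclin-dependent kinase inhibitors Cdkn1c (-1.10 ± 0.12, adjusted p = 3.51e-09) and Cdkn1a (-0.53 ± 0.15) and the D cyclin Ccnd1 (-0.47 ± 0.07) fell, and E2f8, a late E2F family member (0.66 ± 0.20), rose. After 1 week at 0.60 mg/m3 14 of the 25 rose and 9 fell, against 32.8% and 32.3% of all genes, so the falls were near the background.

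Markers of several cell types moved with the 4-week change at 0.60 mg/m3, where 9.47% of all genes were higher and 7.9% lower. Club cell markers fell in 5 of 6, with summed intensities of 25806 to 29999 in controls and 19518 to 21844 in exposed arrays. Neutrophil markers rose in 4 of 7 and fell in 1 (1658 to 3131 against 3095 to 5484), and T cell markers rose in 6 of 12 and fell in none (1145 to 1514 against 1571 to 2810). Monocyte markers rose in 3 of 7 (3126 to 4030 against 5175 to 7030), and alveolar macrophage markers rose in 2 of 6 (3491 to 4319 against 4607 to 5359), although the median change over those 6 was -0.14. Type II cell markers rose in 6 of 10 and fell in 2, while all 6 natural killer cell markers fell (826 to 1477 against 629 to 766) and so did 3 of 7 endothelial markers. None of the 7 smooth muscle markers was called. The part of any of these cell types in the replication genes was not tested.

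The matches to E2F sequences described at the start were counted also by the call after 4 weeks at 0.60 mg/m3. No test was made of this. Of the 13 members with a promoter entry that rose, 9 had a match, and of the other 21 members 7 did. Mcm7 and Tyms, whose windows are printed above, carry a match and were not called at 4 weeks, and rose by 0.63 and 1.59 after 1 week.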

How the data were processed

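Expression was measured in 50 arrays, 10 groups of 5. The deposited values are log2 intensities of 31042 probe sets, made by the authors with RMA in Partek, per the submitters' processing notes. The notes give no versions or scan dates, and which arrays were normalised together was not given in the sources used here. RMA compresses low intensities and gives no detection call. Array medians ran from 5.25 to 5.61, any pair of arrays differed in at least 31031 probe sets, and the number of arrays limits the precision. A single gene symbol was carried by 19063 probe sets, several by 572 and none by 11407. The probe set with the highest mean represented each of 13438 genes.

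A model with 1 mean per group was fitted to all 50 arrays with limma 3.58.1 (lmFit, eBayes) in R 4.3.3, after it had been tested on simulated data. Tests were two-sided, with Benjamini-Hochberg adjustment of p values over the 13438 genes of a comparison. Nothing was transformed, filtered or normalised again. The members, lists and tests were chosen with earlier results of these data known. Values per array are given for the 15 members that a rule took: those called in most comparisons with controls, or in opposite directions, or called at 0.04 or 0.08 mg/m3 after 4 weeks. Up to 4 called genes with the largest change were named per pathway list. Ranges for other members were chosen after their values were seen. Promoters are RefSeq, GRCr8. Replicate numbers are shared between groups in the labels and were not used as pairs in the main model. Correlations of same-numbered arrays' deviations ran from -0.49 to 0.39. Whether the numbers mark a batch was not tested. Alternatives were array weights, centring, quantile normalization, the mean of all probe sets of a gene and a filter on the dimmest 25% of genes. Others were a replicate block, a covariate or other controls at 1 week, a model of the compared arrays, and omission of each array.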

Additional observations from a re-analysis of the deposited data

Results flagged for a closer look

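In groups of 5 arrays, 17 of 170 tested group values had 1 array far from the other 4, where chance flags about 1 in 20. Of these, 9 were replicate 1 at 0.15 mg/m3 after 1 week. It stood apart in Rrm2 (7.94), Cdt1 (6.91), Mcm3 (6.12), Tk1 (6.01), Mcm6 (7.51), Fen1 (5.09), Rrm1 (7.10), Prim1 (7.22) and in the average of the replication genes (0.0238, where the others lay between 0.55 and 0.72). At 1 week the other flagged arrays were replicate 5 at 0.04 mg/m3 for Uhrf1 (4.47), replicate 1 at 0.04 mg/m3 for Pola2 (8.93), replicate 2 at 0.04 mg/m3 for Prim1 (4.98), replicate 5 at 0.08 mg/m3 for Lig1 (7.13) and replicate 2 at 0.60 mg/m3 for Mcm6 (8.86). At 4 weeks they were replicate 1 at 0.08 mg/m3 for Pola2 (7.66) and control replicates 2 for Fen1 (4.49) and 3 for Rrm1 (7.30).

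The change at 4 weeks differed from the change at 1 week, by the limma test of the difference itself, in 11 of the 15 members described per array at 0.60 mg/m3, a test that 56.7% of all genes passed. Those 15 had been taken for how often, or in which directions, they were called. At 0.15 mg/m3 it was 9 of the 15, where 56.8% of all genes passed. The differences at 0.60 mg/m3 were -2.59 for Rrm2, -1.85 for Mcm6, -1.85 for Rrm1, -1.82 for Prim1, -1.73 for Gmnn, -1.15 for Mcm4, -0.93 for Uhrf1, -0.91 for Fen1, -0.76 for Chaf1a, -0.74 for Lig1 and -0.57 for Tk1. At 0.15 mg/m3 they were -2.24 for Rrm2, -1.84 for Gmnn, -1.69 for Prim1, -1.64 for Rrm1, -1.55 for Mcm6, -1.08 for Mcm4, -0.96 for Uhrf1, -0.63 for Fen1 and -0.53 for Lig1. The 1-week controls enter each of these.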

How the results depend on the processing

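Counts of members called were recomputed in 124 settings other than leaving out an array, and 111 stayed within 1.5 times the count given. For the 19 members called at 0.60 mg/m3 after 4 weeks, 320 alternatives were tried, with omitted arrays included. In 57 of these the call was lost, and in 0 the direction reversed. Array weights gave 9 at 0.04, 7 at 0.08 and 21 at 0.15 mg/m3 after 4 weeks, 3 for 0.60 against 0.15 mg/m3 and 20 for 0.15 against 0.08 mg/m3 after 4 weeks. A model of only the compared arrays gave 9, 2 and 15 at 0.04, 0.08 and 0.15 mg/m3. The shares of all genes given for these comparisons are those of the main model and not of these settings. Centring or quantile normalization gave 2 at 0.08 mg/m3, and omission of the dimmest 25% of genes gave 5 at 0.04 mg/m3, all after 4 weeks. The 4-week controls gave 32 at 0.04 mg/m3 after 1 week. In the difference of changes at 0.15 mg/m3 these controls cancel. The 35 found there is therefore the direct comparison of the 2 times, with 33 lower and 2 higher. Why the other counts moved was not tested. With the replicate block 16 were called at 0.60 and 5 at 0.15 mg/m3 after 4 weeks. Omission of 1 array gave 12 to 19 at 0.60, 4 to 7 at 0.15, 1 to 3 at 0.08 and 2 to 6 at 0.04 mg/m3 after 4 weeks. It gave 35 to 36, 31 to 35, 15 to 21 and 5 to 14 after 1 week, 28 to 31 between controls, 27 to 29 and 23 to 25 for the differences of changes at 0.60 and 0.15 mg/m3, and 1 to 11 for 0.15 against 0.08 mg/m3. Between times it gave 36 to 38 at 0.60 and 32 to 37 at 0.15 mg/m3, and 0 to 0 for 0.60 against 0.15 mg/m3 at both times. Of the 19 members called at 0.60 mg/m3 after 4 weeks, Cdt1, Mcm3, Mcm5, Mcm6, Pola2, Pole2, Rrm2 and Uhrf1 stayed called in every setting tried. So did Ccne1 and Ccne2, but in 6 settings other than leaving out an array, against 7 for the others named. Their mean log2 intensities, 4.00 and 4.01, lay among the dimmest 25% of genes. Their calls could therefore not be tried with those genes omitted. Mcm4, Lig1 and Mcm2 were lost most often.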
